A study of Mus musculus with 6 samples.

Results

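The genes described here are 10 members of the semaphorin guidance system, Sema3a, Sema3c, Sema3d, Sema3g, Sema6a, Plxna2, Plxna4, Plxnd1, Nrp1 and Nrp2. They were taken by gene symbol from the 15330 genes of the deposited table, and all 10 were found. They were measured in hearts dissected from mouse embryos at embryonic day 9.5. The 3 H2-URI d/d libraries came from homozygous embryos in which CRISPR-Cas9 had removed 373 kb of sequence that lies upstream of Hand2, and the 3 wild-type libraries from embryos that kept it. In both groups replicates 1 and 2 are labelled female and replicate 3 male, and all carried batch number 1. The labels name no founder line and do not say whether a library held 1 heart or several, so the spread behind each p-value is that between libraries and may be technical. The comparison asks how transcripts of the heart differ when this interval is missing. The members were chosen by their measured values in this same comparison, so their fold changes, and whether they passed over all genes, are a description and not independent evidence.

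Semaphorins are secreted or membrane-bound ligands that steer migrating cells and growing vessels and axons, mostly by repulsion. Secreted class 3 semaphorins bind a neuropilin, which forms a receptor complex with a plexin, the subunit that signals into the cell. Neuropilins are also co-receptors for VEGF ligands. In the developing heart the system is known for guiding cardiac neural crest into the outflow tract, where Sema3c, Plxna2 and Plxnd1 are needed for its septation.

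Of the 10 members, 3 were higher in H2-URI d/d hearts (Sema3g, Sema3c and Sema6a), 1 was lower (Nrp2) and 6 did not pass an adjusted p of 0.05 in limma. Over all genes 3.05% passed, 1.55% higher and 1.5% lower, and nothing is read from the members' count against these shares. Sema3g transcripts were 2.52 times as abundant in deletion as in wild-type hearts, and Nrp2 stood at 52.9% of its wild-type mean while Nrp1 stood at 102%. The 3 higher members are ligands and the lower 1 is a receptor subunit, which describes chosen members and does not extend to the family. Outside the members 2 family genes were called, both higher: the receptor gene Plxnb1 (log2 fold change 0.52, adjusted p = 0.0155, limma) and the ligand gene Sema4g. Ligands with negative values, such as Sema3a and Sema4d, did not pass. Hand2 itself, beside the deleted interval, had between 1025 and 1163 normalized counts in the deletion libraries and between 3789 and 4407 in the wild-type libraries.

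These values depend on which sample each column belongs to. Each column was matched by its code to a sample title, but 4 of the 6 files are recorded under the opposite group. If the record is followed instead, the log2 fold change of Hand2 is 0.57, that of Sema3g −0.66 and that of Nrp2 0.44, and none of the 10 members passes in limma, where the adjusted p of each was 1. Reads recovered from the normalized counts and summed over the 15330 deposited genes numbered between 25583210 and 32043595 per library. Reads outside these genes are not included. All 10 listed cardiomyocyte markers were measured and 0 were called. Of the neural (7 measured), erythroid (8) and pharyngeal epithelium (10) markers 0 were called. Of 11 cushion mesenchyme markers 3 were called lower (Postn, Msx1 and Twist1) and 0 higher. Of 10 second heart field markers 2 were lower (Rgs5 and Tdgf1) and 1 higher (Tbx1), and of 3 measured macrophage markers 1 was higher (Mrc1). Over all genes 3.05% were called, 1.55% higher and 1.5% lower. The part of these cell types in the members' values was not tested. The neural crest genes Sox10 and Foxd3 were not among the table's rows.

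**Figure D1:**
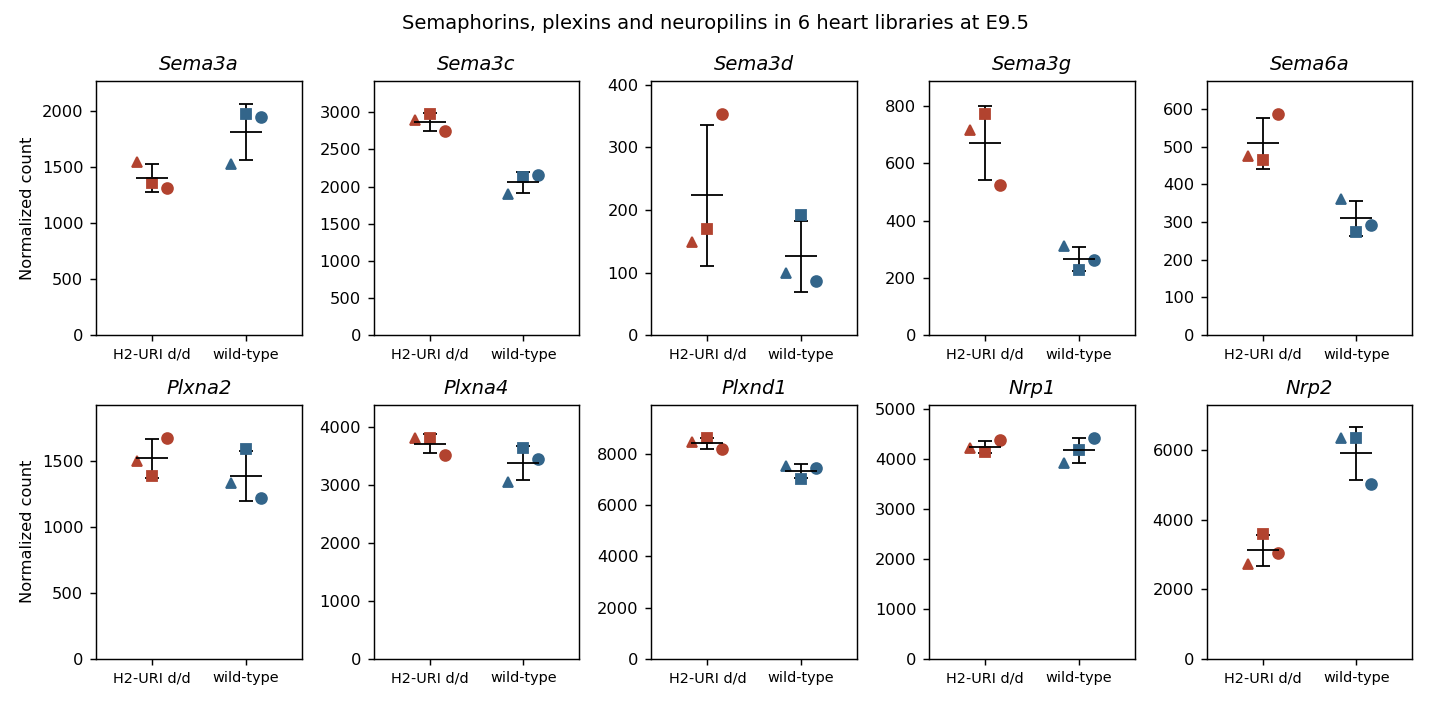
Normalized counts of the 10 members in each library, on linear axes that start at 0 and differ between panels. Points are libraries (triangle, replicate 1; square, replicate 2; circle, replicate 3, male), and bars give the mean ± SD of 3 libraries. The 2 groups lie apart for Sema3c, Sema3g, Sema6a, Plxnd1 and Nrp2 and overlap for the other 5 members. Of all genes, 12.9% lay apart in the higher and 14.5% in the lower direction.

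The promoters of the 3 called members that the promoter table holds are shown because E-boxes, the CANNTG words that basic helix-loop-helix factors such as Hand2 bind, can be read in them directly. Each runs 5′ to 3′ on the gene's own strand, the plus strand here, through the 250 bases before the RefSeq start on GRCm38.p6, an older build than the GRCm39 of the authors' processing. Capitals mark CANNTG words. A word that matches this pattern on 1 strand also matches it on the other, though its 2 middle bases can differ. The windows lie at chr14:31217623-31217872 for Sema3g, chr5:17574566-17574815 for Sema3c and chr1:62703067-62703316 for Nrp2.
Sema3g: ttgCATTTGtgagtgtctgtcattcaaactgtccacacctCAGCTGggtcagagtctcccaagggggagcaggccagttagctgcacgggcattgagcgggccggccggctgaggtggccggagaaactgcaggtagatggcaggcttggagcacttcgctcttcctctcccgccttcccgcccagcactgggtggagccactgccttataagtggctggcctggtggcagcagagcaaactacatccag
Sema3c: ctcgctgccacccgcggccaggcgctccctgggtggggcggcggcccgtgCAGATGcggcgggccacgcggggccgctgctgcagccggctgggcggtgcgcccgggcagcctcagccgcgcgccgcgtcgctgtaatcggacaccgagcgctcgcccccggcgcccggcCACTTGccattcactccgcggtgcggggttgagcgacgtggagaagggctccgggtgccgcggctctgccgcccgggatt
Nrp2: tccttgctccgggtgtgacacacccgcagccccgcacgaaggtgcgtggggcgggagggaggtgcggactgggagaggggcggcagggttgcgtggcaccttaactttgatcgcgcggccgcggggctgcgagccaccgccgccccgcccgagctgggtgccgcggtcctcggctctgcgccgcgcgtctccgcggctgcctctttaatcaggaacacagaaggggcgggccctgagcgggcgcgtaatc
The Sema3g window held 2 such words (CATTTG and CAGCTG), the Sema3c window 2 (CAGATG and CACTTG) and the Nrp2 window 0. CAGATG, which is CATCTG on the other strand and is contained in CANNTG, is a form used by Hand factors. Among the 8 members with a promoter in the table, 4 held CANNTG and 1, Sema3c, held CATCTG or CAGATG. Of all 32851 promoters of this length, 66.2% held CANNTG and 14.4% held CATCTG or CAGATG. The GATA words AGATAA or TGATAA, searched on both strands, were found in 1 member, Plxna2, and in 16.6% of all promoters. The windows differed in base composition, with a GC content of 60.4% for Sema3g, 78.4% for Sema3c and 72.4% for Nrp2. A matching word is a description of the sequence and no evidence of binding.

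Among the secreted ligands, Sema3g, which binds Nrp2 and is known from vascular endothelium, had 717, 772 and 524 normalized counts in the deletion libraries and 311, 226 and 261 in the wild-type libraries. Every deletion library lay above every wild-type library, and the lowest deletion library was the male one. The means were 671 ± 130 in H2-URI d/d and 266 ± 42.8 in wild-type hearts (SD, n = 3 each), a log2 fold change of 1.32 (SE 0.16, adjusted p = 0.00377, limma). Sema3g passed in each of the 6 fits with 1 library left out, with log2 fold changes between 1.21 and 1.49. Between the female libraries alone the difference was 1.48 on the log2 scale and between the 2 male libraries 1.00.

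Sema3c, the outflow tract ligand that attracts cardiac neural crest cells, was the most abundant class 3 transcript and rose as well. It had 2891, 2975 and 2745 normalized counts in the deletion libraries and 1897, 2128 and 2155 in the wild-type libraries. The groups did not overlap, and the spread within each group was small. Means of 2870.4 ± 116 in H2-URI d/d and 2059.9 ± 142 in wild-type hearts (SD, n = 3 each) gave a log2 fold change of 0.48 (SE 0.07, adjusted p = 0.00872, limma). Its call ended without deletion replicate 1 (adjusted p = 0.051, limma) and without deletion replicate 2 (adjusted p = 0.0663, limma), with log2 fold changes of 0.47 and 0.45.

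Sema3a, which repels axons and endothelial cells through Nrp1 and class A plexins, had the opposite sign and did not pass. Its normalized counts were 1547, 1357 and 1316 in the deletion libraries and 1529, 1975 and 1947 in the wild-type libraries. Wild-type replicate 1 lay below the highest deletion library, so the groups overlapped. The means were 1407 ± 123 in H2-URI d/d and 1817 ± 249.7 in wild-type hearts (SD, n = 3 each; log2 fold change −0.36, SE 0.11, adjusted p = 0.0964, limma). Without wild-type replicate 1 the log2 fold change was −0.48 and Sema3a passed (adjusted p = 0.0128, limma). It also passed once each library was corrected for transcript length and GC content (adjusted p = 0.0234, limma) and in DESeq2 (adjusted p = 0.0259).

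Sema3d, a ligand known from the proepicardium and from the patterning of pulmonary veins, was the most variable member. It had 149, 169 and 353 normalized counts in the deletion libraries and 99.9, 191 and 86.0 in the wild-type libraries. The groups overlapped, and the male deletion library held the highest value. Means were 224 ± 113 in H2-URI d/d and 126 ± 57.2 in wild-type hearts (SD, n = 3 each; log2 fold change 0.81, SE 0.36, adjusted p = 0.231, limma). Between the male libraries the difference was 2.02 on the log2 scale, a single library per group, and between the female libraries 0.20.

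Of 9 listed epicardial markers 8 were measured, of which 2, Krt19 and Gpm6a, were called higher and 6 did not pass, where 1.55% of all genes were called higher. The summed level of the 8 markers was 4622, 4764 and 5971 normalized counts in the deletion libraries and 2793, 3645 and 2981 in the wild-type libraries. Krt19 alone held 2354, 2376 and 2322 of the deletion sums and 1255, 1286 and 1356 of the wild-type sums. Its highest libraries were deletion replicate 2 and wild-type replicate 3, unlike those of Sema3d. Deletion replicate 3 and wild-type replicate 2 held the highest sum of their group, as they held the highest Sema3d value. The same 2 libraries were highest in the sum of the 8 measured erythroid markers. That sum was 85940, 218699 and 459303 normalized counts in the deletion libraries and 206975, 353779 and 120845 in the wild-type libraries. Within each group its order was that of Sema3d. The part of epicardial or of erythroid cells in the Sema3d values was not tested. In whole hearts fewer cells of a type and less RNA per cell cannot be told apart for any gene named here.

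The membrane-bound ligand Sema6a, which signals through Plxna2 and Plxna4, rose in the deletion. Its normalized counts were 475, 465 and 586 in the deletion libraries and 361, 275 and 293 in the wild-type libraries. The groups did not overlap, with the male deletion library highest. The means were 509 ± 67.3 in H2-URI d/d and 309.6 ± 45.4 in wild-type hearts (SD, n = 3 each; log2 fold change 0.72, SE 0.13, adjusted p = 0.0237, limma). The call ended without any 1 of the deletion libraries or without wild-type replicate 3 (adjusted p from 0.0717 to 0.0937, limma), while the log2 fold change stayed between 0.61 and 0.83.

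The composition of the class 3 ligands was compared within each library, where no scaling of the library can move it. Each gene's normalized count was divided by the length of its longest annotated transcript and expressed as a share of the sum over the 7 measured class 3 genes. Sema3c made up 47.5% ± 0.88 of that sum in H2-URI d/d and 42.6% ± 1.52 in wild-type hearts, Sema3a 21.6% ± 1.64 and 34.7% ± 2.91, and Sema3g 13.4% ± 2.31 and 6.73% ± 1.53 (SD, n = 3 each, H2-URI d/d first in each pair). Sema3f, a ligand of Nrp2, held 10.9% ± 1.29 in H2-URI d/d and 9.62% ± 1.83 in wild-type hearts (SD, n = 3 each), with overlap. The count ratio of Sema3c to Sema3a was 2.05 ± 0.165 in H2-URI d/d and 1.142 ± 0.0868 in wild-type hearts (SD, n = 3 each), without overlap between libraries. Since a share must fall when another rises, these shares are 1 description of the ligands and not separate results.

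**Figure D2:**
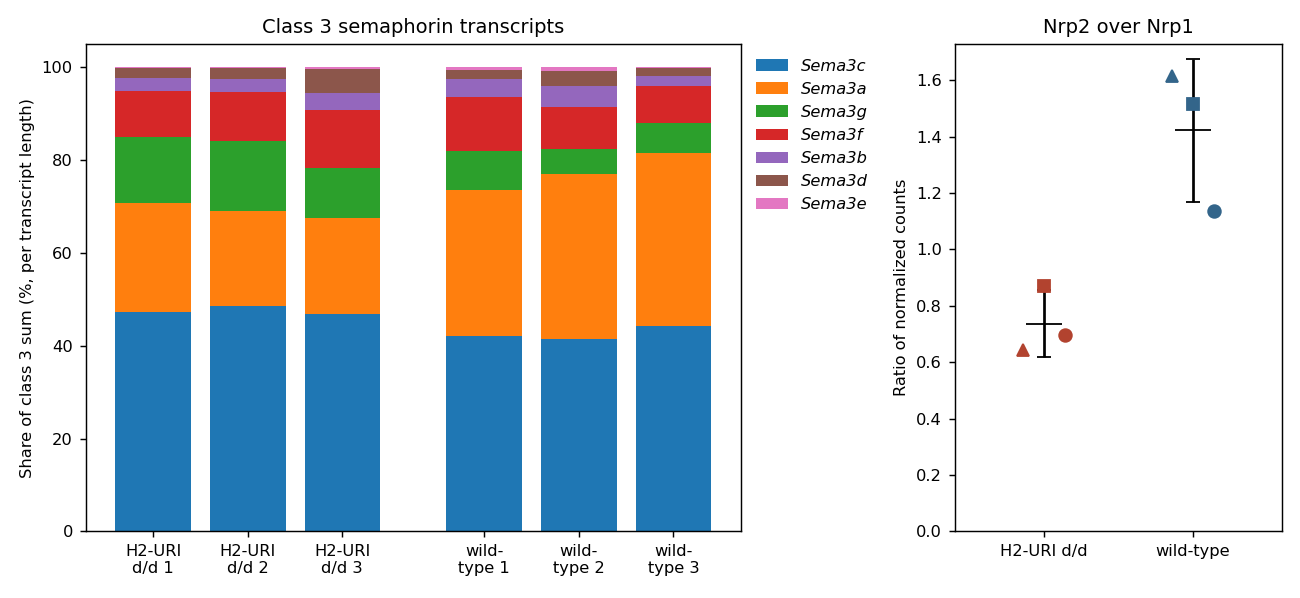
Left, the share of each class 3 semaphorin in their summed level per transcript length, in percent, for each library. Right, the ratio of Nrp2 to Nrp1 normalized counts by library (triangle, replicate 1; square, replicate 2; circle, replicate 3) with mean ± SD of 3 libraries. Sema3a takes a smaller and Sema3g a larger share in every deletion library than in any wild-type library. The neuropilin ratio is lower in every deletion library than in any wild-type library. Its counts are not divided by transcript length, so a ratio above or below 1 does not order the 2 genes.

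The neuropilins differed from each other. Nrp2, a co-receptor for Sema3f, Sema3g and VEGF-C known from veins, lymphatic vessels and neural crest, had 2715, 3599 and 3049 normalized counts in the deletion libraries and 6347, 6329.5 and 5027 in the wild-type libraries. Each deletion library was below each wild-type library, and the male wild-type library was the lowest of its group. Nrp2 fell to 3121 ± 446 in H2-URI d/d, against 5901 ± 757 in wild-type hearts (SD, n = 3 each; log2 fold change −0.92, SE 0.12, adjusted p = 0.00475, limma). The call held in all 6 fits that dropped 1 library, with log2 fold changes between −1.03 and −0.82. Counts are per gene, so the membrane-bound and secreted forms of Nrp2 cannot be told apart.

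Nrp1, the co-receptor for Sema3a and VEGF-A, had 4221, 4141 and 4375 normalized counts in the deletion libraries and 3929.6, 4176 and 4425 in the wild-type libraries. These ranges overlapped almost fully. The means were 4246 ± 119 in H2-URI d/d and 4177 ± 248 in wild-type hearts (SD, n = 3 each; log2 fold change 0.02, SE 0.06, adjusted p = 0.863, limma). The ratio of Nrp2 to Nrp1, which does not depend on the scaling of a library, was 0.64, 0.87 and 0.70 in the deletion libraries and 1.62, 1.52 and 1.136 in the wild-type libraries. It was 0.95 lower on the log2 scale in the deletion mean (a log2 difference of −0.95). Since Nrp1 hardly differed between the groups, this ratio restates the fold change of −0.92 of Nrp2 and is not a separate result. The counts in the ratio were not divided by transcript length, so a ratio above or below 1 does not order the 2 genes.

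Markers of endothelium, which expresses Sema3g, both neuropilins and Plxnd1, did not move in 1 direction. All 12 listed markers were measured, with 2 called higher (Kdr and Cldn5) and 1 lower (Tek), where 1.55% of all genes were called higher and 1.5% lower. The sum of the 12 ranged from 26712 to 27710 normalized counts in the deletion libraries and from 25388 to 27163 in the wild-type libraries. Relative to Pecam1, a general endothelial adhesion gene with 2470.2 ± 134 in H2-URI d/d and 2472 ± 115 normalized counts in wild-type hearts (SD, n = 3 each), the Nrp2 ratio was 1.136, 1.502 and 1.162 in the deletion libraries and 2.59, 2.67 and 1.94 in the wild-type libraries. The Sema3g ratio to Pecam1 was 0.30, 0.32 and 0.20 in the deletion libraries and 0.13, 0.10 and 0.10 in the wild-type libraries. Both ratios were separate between the groups, with log2 differences of −0.92 for Nrp2 and 1.33 for Sema3g. Pecam1 was named after its values were seen and hardly differed between the groups. These ratios therefore restate the fold changes of −0.92 and 1.32 of the 2 members and are not separate results. The part of endothelial cell content in them was not tested.

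Of the plexins, none of the 3 members passed. Plxnd1, the endothelial receptor that binds Sema3e directly and class 3 ligands with neuropilins, had 8451, 8630.3 and 8193 normalized counts in the deletion libraries and 7549, 7039 and 7437 in the wild-type libraries. Though the groups did not overlap, as for 12.9% of all genes in this direction, the value of 0.20 on the log2 scale did not pass (SE 0.06, adjusted p = 0.106, limma). Correction for length and GC content took it to −0.0018, while DESeq2 called it (adjusted p = 0.0371), so its size and its call depended on the processing.

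Plxna2, a receptor of cardiac neural crest, had 1499.85, 1382 and 1674 normalized counts in the deletion libraries and 1335, 1591 and 1219.9 in the wild-type libraries. Its groups overlapped (log2 fold change 0.14, SE 0.11, adjusted p = 0.485, limma). The value was 0.03 after correction for length and GC content, 0.055 without wild-type replicate 3 and 0.25 without wild-type replicate 2. Plxna4, a class A plexin known mainly from neurons, had 3799.8, 3809 and 3521 normalized counts in the deletion libraries and 3049.9, 3632 and 3444 in the wild-type libraries. Its groups overlapped too (log2 fold change 0.14, SE 0.08, adjusted p = 0.331, limma), and its value turned to −0.0046 under the same correction. Of 10 neural crest markers 7 were measured, of which 5 had positive log2 fold changes, with a median of 0.40 over the 7, and none of these 5 passed. The 1 called gene was Ets1, which endothelium also expresses, with 1742 to 1866 normalized counts in the deletion libraries and 2128 to 2317 in the wild-type libraries (log2 fold change −0.30, adjusted p = 0.0376, limma). Of all genes, 1.5% were called lower. Ets1 made up most of the list's sum, which lay between 2399 and 2534 in the deletion libraries and between 2760.1 and 2799.6 in the wild-type libraries. Their part in the values of Sema3c and Plxna2 was not tested.

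Levels can be ordered only per transcript length. In H2-URI d/d hearts Plxnd1 and Nrp1 led with means of 1219.7 and 1165 normalized counts per kb, and their library ranges overlapped. Sema3c at 523 and Nrp2 at 464 followed and overlapped each other, ahead of Plxna4 at 288, Sema3a at 237, Sema3g at 148 and Plxna2 at 138, of which only the last pair overlapped. Sema6a at 74.2 and Sema3d at 35.5 were lowest. In wild-type hearts Nrp1 at 1146 and Plxnd1 at 1063 led and overlapped, followed by Nrp2 at 878 and Sema3c at 375, each separate from its neighbours. Sema3a at 306 and Plxna4 at 262 overlapped, Plxna2 at 125 stood alone, Sema3g at 58.6 and Sema6a at 45.2 overlapped, and Sema3d at 19.9 was lowest. The order of means differed between the groups in 4 neighbouring pairs, Plxnd1 and Nrp1, Sema3c and Nrp2, Plxna4 and Sema3a, and Sema3g and Plxna2, and each pair overlapped in at least 1 group. The longest annotated transcript of Nrp1 is 3645 bases, which sets its place in this order.

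The whole family gives the setting for these members. Of 31 semaphorin, plexin and neuropilin genes listed by name, 28 were measured, of which 5 rose, 1 fell and 22 did not pass in limma. Of all genes, 1.55% were called higher and 1.5% lower. The median log2 fold change was 0.18 over the 28 genes and −0.0073 over all 15330 genes. Positive values were found for 21 of the 28 and for 7424 of all 15330. After correction for length and GC content the family median was 0.05, with 18 positive values, and the median of all genes −0.02. Under that correction 5 family genes were called higher and 2 lower, where 1.25% of all genes were called higher and 1.99% lower. Family transcripts are long and GC-rich, with medians of 6118.5 bases and 55.6%, against 3180.0 bases and 49.7% over all genes. The 10 members alone had medians of 6515 bases and 49.2%, so they were long but not GC-rich. Dropping deletion replicate 1 or 2 left 1 family gene that rose, dropping deletion replicate 3 or wild-type replicate 3 left 3, and dropping wild-type replicate 1 or 2 gave 6.

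Among the 18 family genes outside the member list, 2 rose and 0 fell in limma, and 9 had an unadjusted p under 0.05 in either direction. Of all 15330 genes, 3281 had such an unadjusted p, and 1.55% were called higher and 1.5% lower. Plxnb1, the receptor of Sema4d, had 2303, 2256 and 2135 normalized counts in the deletion libraries and 1753, 1531 and 1410.3 in the wild-type libraries (log2 fold change 0.52, SE 0.08, adjusted p = 0.0155, limma). Sema4g, a membrane-bound class 4 ligand, had 362, 385 and 406 in the deletion libraries and 284.9, 217 and 205 in the wild-type libraries (log2 fold change 0.72, SE 0.14, adjusted p = 0.0252, limma). Neither gene's groups overlapped, and both calls ended without deletion replicate 1 or 2, that of Sema4g also without deletion replicate 3 or wild-type replicate 3. Sema4d, the ligand of Plxnb1, had the opposite sign at −0.41 (adjusted p = 0.0779, limma).

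By class, 2 of 7 class 3, 1 of 5 class 4, 1 of 4 class 6 and 1 of 2 class B plexin genes rose, where 1.55% of all genes were called higher. None of the 4 class A plexins passed, though all 4 had positive log2 fold changes, between 0.11 and 0.32, a sign that Plxna4 lost under the correction for length and GC content. Sema3f stood at 0.52 on the log2 scale (adjusted p = 0.061, limma), with 374, 400.2 and 449 normalized counts in the deletion libraries and 323, 291 and 243 in the wild-type libraries. Sema3e, the direct ligand of Plxnd1, was scarce at 12.7, 13.9 and 24.8 normalized counts in the deletion libraries and 30.6, 48.9 and 15.6 in the wild-type libraries, and did not pass (adjusted p = 0.342, limma). The genes Sema4f, Sema5b and Plxnb3 were not among the table's rows.

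**Figure D3:**
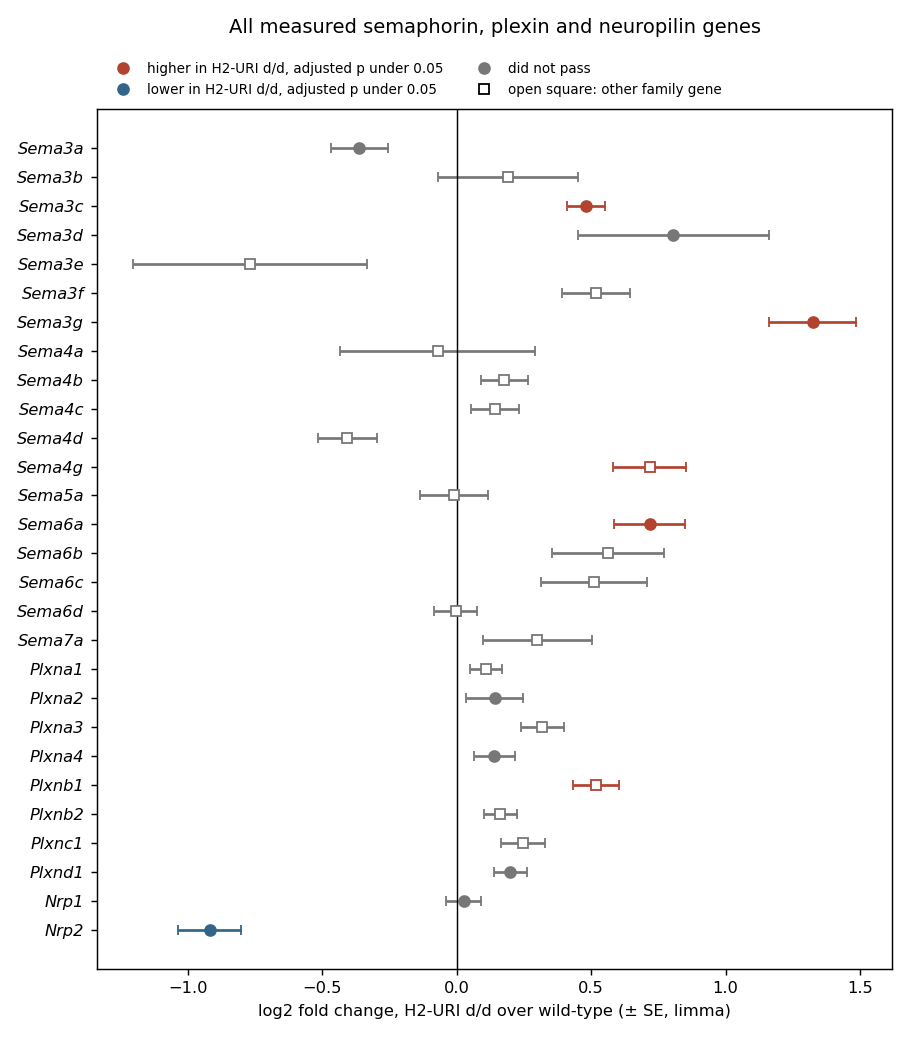
Log2 fold change of H2-URI d/d over wild-type with its standard error (limma, n = 3 each) for the 28 measured family genes, ordered by class. Filled circles are the 10 members and open squares the other 18 genes; red marks genes called higher and blue genes called lower. Sema3g at 1.32 and Nrp2 at −0.92 stand at the 2 ends of the plot.

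Co-receptors, effectors and competing ligands of the pathway were taken as a list of 41 genes, of which 40 were measured. In limma 3 rose, 0 fell and 37 did not pass, with 13 at an unadjusted p under 0.05 in either direction and a median log2 fold change of 0.06. Over all 15330 genes 1.55% were called higher and 1.5% lower, and 3281 had an unadjusted p under 0.05 in limma. Vegfa, the VEGF ligand that binds Nrp1, had 3064, 3108 and 3049 normalized counts in the deletion libraries and 1982, 2148 and 2077 in the wild-type libraries (log2 fold change 0.57, adjusted p = 0.00172, limma). Kdr, the VEGF receptor that pairs with neuropilins, had 5279.6, 5438 and 4859.8 in the deletion libraries and 4236, 3967 and 4197 in the wild-type libraries (log2 fold change 0.33, adjusted p = 0.0317, limma). Erbb2, a kinase that can associate with Plxnb1, was higher by 0.35 on the log2 scale (adjusted p = 0.0212, limma). The calls of Kdr and Erbb2 ended after correction for length and GC content, with log2 fold changes of 0.28 and 0.22, with the replicate block (adjusted p = 0.0878 for Kdr and 0.0688 for Erbb2, limma), without an intensity trend, and without deletion replicate 1, deletion replicate 2 or wild-type replicate 3. That of Kdr also ended without deletion replicate 3 and with sex as a term. Met, a kinase that associates with plexins of class B, had a larger value than either and did not pass (log2 fold change 0.52, adjusted p = 0.123, limma).

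Of the genes that carry the signal inward or process the ligands, none passed, and some had values as large as those of Kdr and Erbb2. Fes, a kinase downstream of Plxna1, stood at −0.42 on the log2 scale (adjusted p = 0.0865, limma) and Dpysl5, of the collapsin response mediator family, at 0.45 (adjusted p = 0.11, limma). Other values were those of Limk1, the kinase of cofilin, at 0.29 on the log2 scale (adjusted p = 0.0599, limma), the Flt1 receptor at 0.19, the Nrp1-binding adaptor gene Gipc1 at 0.0092, the VEGF-C receptor gene Flt4 at 0.02 and Furin, the protease that cleaves class 3 semaphorins, at −0.13. Gata6, which activates Sema3c and Plxna2 in cardiac neural crest, had 2764, 2607 and 2822 normalized counts in the deletion libraries and 2731, 3078 and 2701 in the wild-type libraries. Its groups overlapped (log2 fold change −0.05, adjusted p = 0.713, limma). Among the 10 listed transcription factors of the outflow region, Foxc1 (log2 fold change −0.77, adjusted p = 0.0317, limma) and Hand2 were lower and Tbx1 was higher (1.90, adjusted p = 0.0495, limma, and adjusted p = 0.0576 in edgeR). In limma 1.5% of all genes were called lower and 1.55% higher. The calls of Foxc1 and Tbx1 ended without an intensity trend and without deletion replicate 1, deletion replicate 2 or wild-type replicate 3. That of Tbx1 also ended without deletion replicate 3 or wild-type replicate 2, with sex as a term (adjusted p = 0.0633, limma), with the replicate block (adjusted p = 0.0671, limma) and with a minimum mean of 50 (adjusted p = 0.0501, limma).

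Outside the family, the genes whose pattern over the 6 libraries was most like that of Sema3g were Kdr (Pearson r = 0.996), Lrp11 (r = 0.994) and Erbb2 (r = 0.992) on the log2 scale. Both groups enter each r, so it mostly follows genes higher in the deletion and is a description only.

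**Figure D4:**
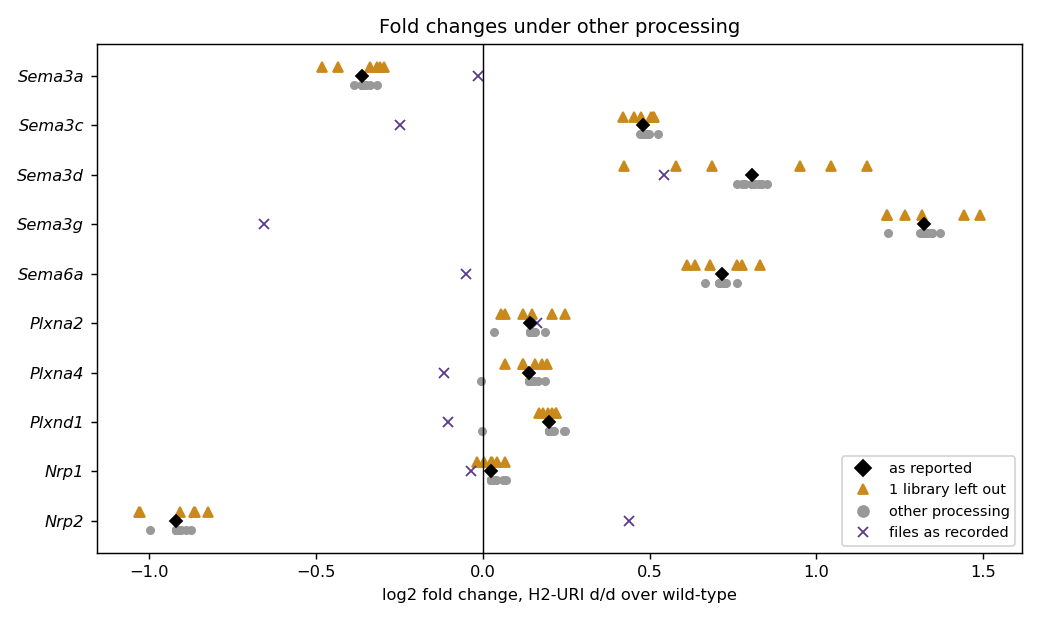
Log2 fold change of each member as reported (black diamonds), with 1 library left out (triangles), under the other processing settings (grey circles) and with the files as recorded (crosses). Sema3g stays above 1.2 and Nrp2 below −0.8 in all of these except the recorded assignment, where they stand at −0.66 and 0.44; Plxna4, Plxnd1 and Nrp1 lie near 0 and cross it.

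The settings differ in how many genes they call. DESeq2 called 4.16% lower and 3.73% higher of the 14438 genes to which it gave an adjusted p, and edgeR called 1.51% lower and 1.75% higher of all 15330. Without an intensity trend 0.476% were called in each direction, with the replicate block 0.718% lower and 0.626% higher, and with the files as recorded 0 genes. Correction for length and GC content gave 1.99% lower and 1.25% higher, and equal totals without haemoglobin 1.36% lower and 2.56% higher. Without deletion replicate 1, 2 or 3, in that order, 0.541%, 0.398% and 0.626% were lower and 0.359%, 0.274% and 0.45% higher. Without wild-type replicate 1, 2 or 3 these shares were 1.84%, 4.53% and 0.522% lower and 2.18%, 3.04% and 0.574% higher. Fewer genes were thus called over the whole table without any 1 deletion library or without wild-type replicate 3 than with all 6 libraries. Genes whose libraries did not overlap between the groups made up 14.5% of the table in the lower and 12.9% in the higher direction.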

How the data were processed

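RNA of 6 heart libraries, 3 per group, was sequenced. Tools listed in the submitters' processing notes are STAR 2.7.9a, bcl2fastq 2.20, DESeq2 1.30.1 and featureCounts (Subread 2.0.1), with the build GRCm39; the annotation, strand setting and gene filter are not stated in the sources used. The deposited signal is named a normalized count by the authors, with no factor given. Every value was a whole multiple of 1 step per library (100% within 0.01), as read counts divided by a factor would be, so reads could be recovered.

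Members and gene lists were chosen with earlier results of these data known. The main test was the trend version of limma 3.58.1 in R 4.3.3, two-sided, with a pseudocount of 1 added to each normalized count before taking log2. All 15330 genes entered, since none fell under the minimum mean of 10 (lowest 15.4), and p-values were adjusted by Benjamini-Hochberg with a threshold of 0.05. The pseudocount understates the change of low genes. On the recovered reads, edgeR 4.0.16 called 231 genes lower and 268 higher, against 230 and 237 in limma, and DESeq2 1.42.0 called 600 lower and 539 higher. Simulated over all 15330 genes at this group size, limma recovered 53.1% of 1.5-fold, 79.7% of 2-fold and 96.4% of 4-fold changes, while false calls made up 7.06%. Lengths and GC content came from the longest GENCODE M21 transcript (GRCm38), matched by symbol for 96.9% of genes.

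Named genes were all 10 members, the family, signalling and transcription factor genes past the threshold, those of smallest p below it, Hand2, and the 3 genes most like the member of smallest p. Sema3e, Sema7a, Limk1, Fes, Dpysl5, Met, Flt1, Gipc1, Flt4, Furin, Gata6 and Pecam1 were named after their values were seen. Alternatives covered the pseudocount, filter, scaling, variance model, test, sex, replicate block, recorded files, length and GC content, and each library left out. Proteins were not analysed here.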

Additional observations from a re-analysis of the deposited data

Results flagged for a closer look

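In 2 of the 28 measured family genes, both outside the member list, the deletion effect had opposite signs in the sexes, by the order of the libraries. Sema3e was lower in both female deletion libraries than in both female wild-type libraries, a log2 difference of −1.48, and 0.64 higher in the male one. That male value rests on 23 reads in the deletion library and 17 in the wild-type library. Sema7a was higher in the female deletion libraries by 0.51 and lower in the male one, at −0.11. The difference between the sexes was not tested, with 1 male library per group. How many of all genes had such an order was not counted, so nothing is read from these 2 genes.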

How the results depend on the processing

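Of the 13 settings that kept all libraries and their groups, all 13 left the call of Sema3g, Hand2 and Vegfa as reported. The call of Nrp2 ended only without an intensity trend (adjusted p = 0.0544, limma), as did those of Sema3c (adjusted p = 0.0616) and Plxnb1; those of Sema6a (adjusted p = 0.0523) and Sema4g ended with the replicate block too. The cause was not tested. The members called lower numbered 1, with 2 in DESeq2 and after correction for length and GC content, where Sema3a joined, and 0 without an intensity trend; 1 to 2 with each library left out. Those called higher numbered 3, with 4 in DESeq2, where Plxnd1 joined, 2 with the replicate block, 1 without an intensity trend and 1 to 3 with each library left out. Of the other family genes, 0 were lower (1 in DESeq2, 0 to 1 with each library left out) and 2 higher: 4 after rescaling to equal totals without haemoglobin, 4 in DESeq2, 1 with the replicate block, 0 without an intensity trend and 0 to 3 with each library left out. Of the signalling genes 0 were lower (1 after correction for length and GC content) and 3 higher: 6 in DESeq2, 1 with the replicate block, 1 without an intensity trend, 1 after correction for length and GC content and 1 to 5 with each library left out. The number of signalling genes called higher was also 4 after quantile normalization, 4 with equal totals without haemoglobin and 2 with sex as a term. The shares of all genes called after quantile normalization and with sex as a term are not given here, so nothing is read from those 2 counts. With the files as recorded all of these counts were 0, and the log2 fold changes were −0.25 for Sema3c, −0.66 for Sema3g, −0.0509 for Sema6a, 0.44 for Nrp2, 0.57 for Hand2, −0.0623 for Sema4g, −0.12 for Plxnb1, −0.20 for Erbb2, −0.19 for Kdr, −0.20 for Vegfa and 0.40 for Foxc1. Replicate numbers did not pair the samples: the deviations of same-numbered libraries correlated at −0.03, −0.12 and −0.14.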
